A study of Mus musculus with 6 samples.

Results

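The genes described here encode the adhesion molecules and scaffolds that hold both faces of a synapse together: the neurexins Nrxn2 and Nrxn3, the neuroligins Nlgn1, Nlgn2 and Nlgn3, the neurexin-related Cntnap2, and the postsynaptic scaffolds Dlg2, Dlg4 and Shank3. They were chosen by symbol, and all 9 were found among the 55492 genes of the deposited table. All 9 also passed the filter on low values, a mean of at least 0.5 TPM (a transcript abundance scaled for transcript length, with the same total in every library), which left 15245 genes for testing. In O4-purified cells none of the 9 differed detectably between Npc1-/- and WT mice.

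RNA was sequenced from cells that microbeads against O4, a surface antigen of late oligodendrocyte progenitor cells (OPCs) and immature oligodendrocytes, pulled from the whole brain of mice at 16 days of age. The 3 WT and 3 Npc1-/- mice were untreated, and per the labels each library came from 1 mouse. The mutants carried the Npc1 nih null allele on both chromosomes in every cell of the body, neurons included, as F1 hybrids of BALB/cJ and C57BL6/J. Npc1 moves cholesterol out of the lysosome, and the study asked how its loss alters gene expression in the oligodendrocyte lineage.

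Each library held an estimated 40750000 to 50250000 fragments, recovered from the spacing of the low values. Npc1 itself was at 45.5 to 53.3 TPM in WT and 3.16 to 4.42 TPM in Npc1-/- libraries, so the labels matched the targeted gene. Mbp, a main myelin protein gene, held 18.8 to 26.1% of all TPM, and markers of every other brain cell type that was checked were also present, none of them at 0. Npc1-/- replicate 3 stood apart: Xist, which marks an inactive X chromosome, was at 15.6 TPM there and at most 0.01 elsewhere, while the Y-linked Ddx3y was at 0 there and between 14.4 and 23.6 TPM elsewhere. Where leaving out this library changed a direction, the value without it is given. TPM were divided by a size factor per library before genotypes were compared. The TPM total is fixed, so a gene that takes a large share, such as Mbp, lowers all others. How much of the spread of the size factors comes from myelin transcripts was not tested. Levels called scaled TPM below are TPM divided by these factors.

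Neurexins sit in the presynaptic membrane and reach across the cleft to neuroligins, which in turn bind the PDZ scaffolds of the postsynaptic density. Nlgn1 is found mainly at excitatory synapses and Nlgn2 at inhibitory ones, while Nlgn3 occurs at both. Dlg4 encodes PSD-95 and Dlg2 encodes PSD-93, membrane-associated guanylate kinases that anchor glutamate receptors, and Shank3 links them to the actin cytoskeleton. Cntnap2 encodes Caspr2, which clusters potassium channels at the juxtaparanode beside the node of Ranvier in myelinated axons. Cells of the oligodendrocyte lineage express several neuroligins and scaffolds as well, and OPCs receive synapses from neurons. In RNA from a bulk population, fewer cells of a type and less RNA per cell cannot be told apart.

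Promoter sequence is shown for 4 members that varied together between mice in the results that follow: Nlgn1 and Nlgn2, which were high and low in the same mice, and Dlg4 and Shank3, which varied the other way. Each window runs from 250 bases before to 50 bases after the first listed start of the gene (RefSeq, GRCm38.p6, 5′ to 3′ on the strand of the gene), and capitals mark each CG, a motif that reads the same on both strands and is the site of DNA methylation.
Nlgn1, chr3:26331860-26332159, minus strand: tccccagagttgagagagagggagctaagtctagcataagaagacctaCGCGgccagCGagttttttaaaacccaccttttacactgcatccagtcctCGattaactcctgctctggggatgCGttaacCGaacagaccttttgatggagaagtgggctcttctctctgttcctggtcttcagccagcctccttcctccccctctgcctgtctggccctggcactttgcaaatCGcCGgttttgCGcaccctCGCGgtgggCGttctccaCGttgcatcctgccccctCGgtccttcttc
Nlgn2, chr11:69837735-69838034, minus strand: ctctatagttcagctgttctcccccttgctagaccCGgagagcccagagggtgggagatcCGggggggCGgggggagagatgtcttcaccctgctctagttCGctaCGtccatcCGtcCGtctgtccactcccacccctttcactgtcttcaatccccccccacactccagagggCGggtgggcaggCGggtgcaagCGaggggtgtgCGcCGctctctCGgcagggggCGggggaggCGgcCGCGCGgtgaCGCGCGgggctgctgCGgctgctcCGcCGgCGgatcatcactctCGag
Dlg4, chr11:70016953-70017252, plus strand: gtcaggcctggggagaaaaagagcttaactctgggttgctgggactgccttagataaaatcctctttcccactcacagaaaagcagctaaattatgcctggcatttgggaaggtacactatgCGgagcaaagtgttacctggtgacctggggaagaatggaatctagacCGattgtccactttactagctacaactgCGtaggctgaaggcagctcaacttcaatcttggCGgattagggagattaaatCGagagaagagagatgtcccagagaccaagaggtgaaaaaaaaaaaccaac
Shank3, chr15:89499358-89499657, plus strand: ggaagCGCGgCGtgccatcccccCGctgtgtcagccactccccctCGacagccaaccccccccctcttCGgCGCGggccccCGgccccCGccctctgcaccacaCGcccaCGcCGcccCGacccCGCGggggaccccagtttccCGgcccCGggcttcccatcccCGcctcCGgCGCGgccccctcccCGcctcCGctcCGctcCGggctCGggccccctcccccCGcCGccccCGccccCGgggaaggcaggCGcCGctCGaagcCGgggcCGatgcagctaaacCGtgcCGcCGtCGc
The windows of Shank3, Nlgn2, Nlgn1 and Dlg4 held 40, 26, 14 and 5 CG, against a median of 7 over all 32851 windows of this length. At least as many CG as in the Shank3 window were found in 3.91% of all windows, and the same share was 16.9% for Nlgn2, 36.3% for Nlgn1 and 62.0% for Dlg4. The CG count thus separated neither pair from the other. Of the 9 genes, 7 had such windows (15 in all, counting further starts), and Nrxn2 and Nlgn3 had none in the table. At the first listed start the counts were 14 for Cntnap2, 3 for Dlg2 and 2 for Nrxn3.

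None of the 9 genes passed the test for a difference between genotypes. By limma, 0 of 9 passed an adjusted p below 0.05, where 0.813% of all tested genes passed (61 higher and 63 lower in Npc1-/-, or 54 higher and 870 lower on the TPM as deposited). The study itself tested the RNA of O4-purified cells with DESeq2 on counts, which were not used here. The share called is therefore that of limma on scaled TPM, and it differs from the study's. The study reports more genes as significantly higher, even among those with increased promoter acetylation alone, than limma called higher here in all. The count of members called is thus a result of this less permissive test only. At an unadjusted p below 0.05 the count was also 0 of 9, against 22.2% of all genes, and the smallest unadjusted p among the members was 0.189, that of Shank3. Without Npc1-/- replicate 3 there were 0 of 9 called, where 3.13% of all genes were, and 1 of 9 at an unadjusted p below 0.05, where 21.6% of all genes were. That member was Shank3, with an adjusted p of 0.195 by limma. Fitted log2 fold changes were above 0 for 3 members and below 0 for 6, and their median was −0.04, against 0.01 over all genes tested. These signs depended on the processing: on the TPM as deposited all 9 were below 0, with a median of −0.39 against −0.33 over all genes, and with a curve on transcript length removed 5 were above 0 and 4 below, with a median of 0.08 against 0.01. The 3 values of one genotype lay wholly above those of the other in 1 of 9 members, Nrxn2, where 27.5% of all tested genes showed this. The smallest absolute log2 fold change of any called gene was 0.51, a size that the 95% confidence intervals of Nrxn3, Nlgn1, Nlgn2, Cntnap2 and Shank3 reached in 1 direction and those of Nrxn2, Nlgn3, Dlg2 and Dlg4 in none. For the 3 against 3 mice available, the exact permutation test cannot give a two-sided p below 0.1.

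**Figure D1:**
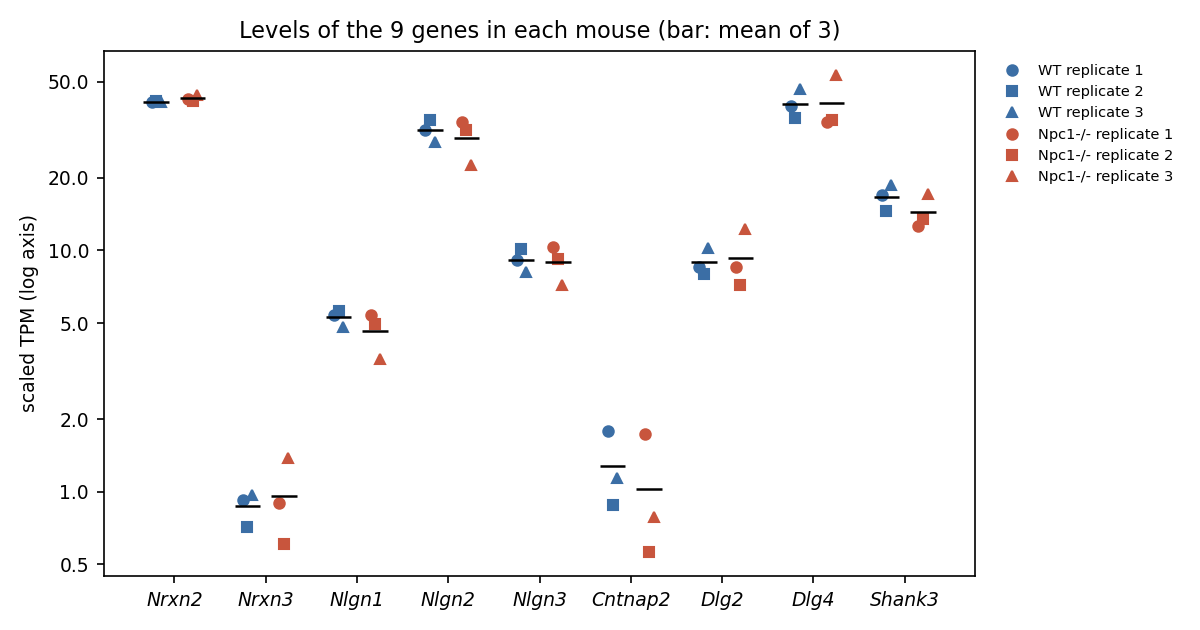
Scaled TPM (log axis) of the 9 genes in each of the 6 mice, with WT in blue, Npc1-/- in red, the shape giving the replicate number and a bar at each mean of 3. The genotypes overlap for every gene but Nrxn2, whose 6 values lie between 41.1 and 44.0, and replicate 3 (triangles) is the lowest of its genotype for each neuroligin and the highest for Dlg2, Dlg4 and Shank3.

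Of the neurexins, Nrxn2 was abundant and almost constant, and Nrxn3 was near the lower limit. Nrxn2 (ENSMUSG00000033768, chr19:6418731-6544169, plus strand, GRCm38) was at 41.1, 41.5 and 41.1 scaled TPM in the WT mice and at 42.3, 41.6 and 44.0 in the Npc1-/- mice. The mutant values all lay just above the WT values, yet the log2 fold change was only 0.05 (standard error 0.07, 95% confidence interval −0.13 to 0.22, n = 3 per genotype, adjusted p = 0.767 by limma). This narrow interval leaves room for a fold of 0.916 to 1.17. The separation rested on the scaling, since on the TPM as deposited the log2 fold change was −0.32, with all genes at a median of −0.33.

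Nrxn3 (ENSMUSG00000066392, chr12:88722876-90334935, plus strand), whose alternative starts give long and short neurexins, was at 0.926, 0.714 and 0.973 scaled TPM in WT and 0.899, 0.608 and 1.38 in Npc1-/- mice. The highest and the lowest of the 6 values both came from mutant mice. The log2 fold change on the log2(value + 0.5) scale, which understates the change of low genes, was 0.06 (standard error 0.23, 95% confidence interval −0.48 to 0.61, n = 3, adjusted p = 0.907 by limma). It was −0.14 without Npc1-/- replicate 3. The log2 ratio of Nrxn2 to Nrxn3 within a mouse, which no scaling between libraries can alter, averaged 5.58 ± 0.248 (SD, n = 3) in WT and 5.55 ± 0.549 in Npc1-/- mice (exact permutation p = 1.0, two-sided). The difference of −0.03 turned to 0.25 without Npc1-/- replicate 3 and to 0.11 without WT replicate 2.

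The neuroligins, the postsynaptic receptors of neurexins, varied together from mouse to mouse and overlapped between genotypes. Nlgn2 (ENSMUSG00000051790, chr11:69823122-69837784, minus strand), the most abundant of them, was at 31.7, 34.8 and 28.2 scaled TPM in WT and 34.0, 31.4 and 22.6 in Npc1-/- mice. Its log2 fold change was −0.12 (standard error 0.16, 95% confidence interval −0.51 to 0.27, n = 3, adjusted p = 0.724 by limma). The lowest value of each genotype was that of replicate 3, and without Npc1-/- replicate 3 the log2 fold change was 0.05.

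Nlgn3 (ENSMUSG00000031302, chrX:101299168-101325963, plus strand), the X-linked member, was at 9.13, 10.1 and 8.13 scaled TPM in WT and 10.3, 9.22 and 7.21 in Npc1-/- mice. Replicate 3 was again the lowest of both genotypes, though Xist exceeded 0.01 TPM in Npc1-/- replicate 3 only. The log2 fold change was −0.04 (standard error 0.15, 95% confidence interval −0.40 to 0.32, n = 3, adjusted p = 0.911 by limma), and 0.09 without that library. Nlgn1 (ENSMUSG00000063887, chr3:25426215-26332460, minus strand) was at 5.38, 5.63 and 4.83 scaled TPM in WT and 5.38, 4.95 and 3.54 in Npc1-/- mice. Its log2 fold change was −0.19 (standard error 0.16, 95% confidence interval −0.57 to 0.19, n = 3, adjusted p = 0.550 by limma). Without Npc1-/- replicate 3 it was −0.03, and with the transcript-length curve removed it was −0.04.

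Taken as shares of the summed TPM of the 3 neuroligins in a mouse, the genotypes separated for Nlgn1 and Nlgn3. Nlgn1 made up 11.6, 11.1 and 11.7% in WT and 10.8, 10.9 and 10.6% in Npc1-/- mice, a difference of −0.741 points between the means. Nlgn3 made up 19.7, 20.01 and 19.7% in WT and 20.8, 20.2 and 21.6% in Npc1-/- mice, a difference of 1.052 points. For both, every mutant mouse lay on the same side of every WT mouse, and the exact permutation p was 0.1, the smallest this design allows (0.15 after adjustment over the 3 shares). Nlgn2 made up 68.6, 68.9 and 68.5% in WT and 68.4, 68.9 and 67.8% in Npc1-/- mice (exact permutation p = 0.5). Without Npc1-/- replicate 3 the differences were −0.665 points for Nlgn1, −0.0095 for Nlgn2 and 0.674 for Nlgn3. Since no share could pass a threshold of 0.05, the shifts of Nlgn1 and Nlgn3 are values and not calls.

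**Figure D2:**
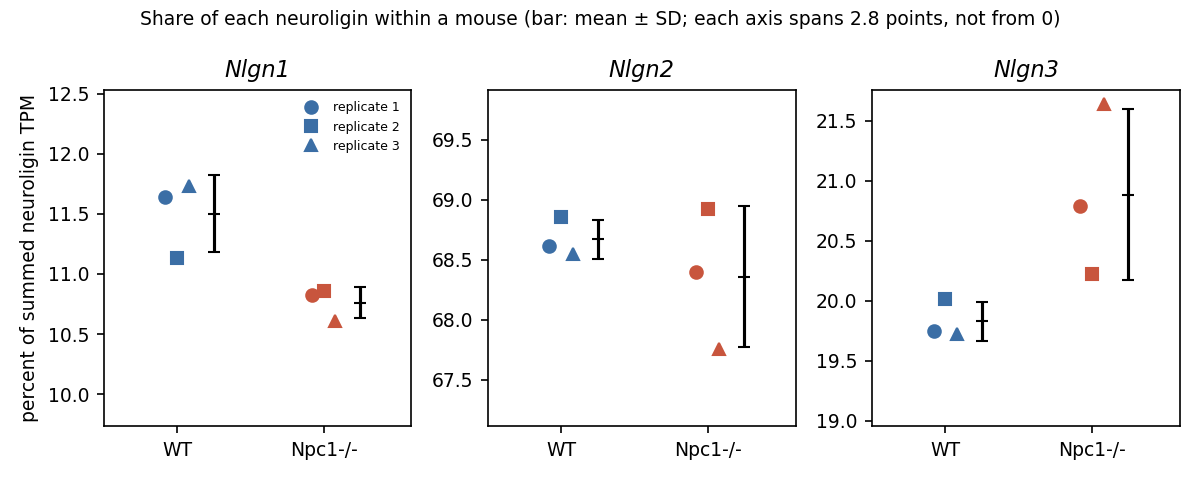
Percent of the summed TPM of the 3 neuroligins taken by Nlgn1, Nlgn2 and Nlgn3 in each mouse, with WT in blue, Npc1-/- in red and mean ± SD (n = 3) beside the points, on axes that do not start at 0. The Npc1-/- mice lie at 10.6 to 10.9% for Nlgn1, below all WT mice, and at 20.2 to 21.6% for Nlgn3, above all WT mice.

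Cntnap2 (ENSMUSG00000039419, chr6:45059357-47304213, plus strand) was the most variable member. It was at 1.79, 0.886 and 1.15 scaled TPM in WT and 1.73, 0.561 and 0.784 in Npc1-/- mice, with replicate 1 the highest of both genotypes and replicate 2 the lowest of both. The highest mouse exceeded the lowest 3.19 times, and the log2 fold change was −0.26 (standard error 0.32, 95% confidence interval −1.02 to 0.50, n = 3, adjusted p = 0.694 by limma). Without Npc1-/- replicate 2 the log2 fold change was −0.04, without WT replicate 1 it was −0.06, and without Npc1-/- replicate 1 it was −0.57. This interval is on the log2(value + 0.5) scale, which understates the change of low genes. A decrease by 2 times lies inside it, so a change of that size is not excluded with this spread between mice.

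The scaffolds also overlapped between genotypes. Dlg4 (ENSMUSG00000020886, chr11:70016942-70047522, plus strand), which lies 179158 bp from Nlgn2 on the same chromosome, was at 39.8, 35.4 and 46.7 scaled TPM in WT and 34.1, 34.7 and 53.5 in Npc1-/- mice. The mean levels were nearly equal, 40.6 ± 5.70 and 40.8 ± 11.04 (SD, n = 3), and the log2 fold change was −0.02 (standard error 0.19, 95% confidence interval −0.47 to 0.44, adjusted p = 0.969 by limma). This near equality rested on Npc1-/- replicate 3, without which the log2 fold change of Dlg4 was −0.23. Dlg2 (ENSMUSG00000052572, chr7:90476672-92449247, plus strand) was at 8.55, 7.96 and 10.2 scaled TPM in WT and 8.58, 7.17 and 12.3 in Npc1-/- mice. Its log2 fold change was 0.04 (standard error 0.20, 95% confidence interval −0.43 to 0.50, n = 3, adjusted p = 0.937 by limma), and −0.17 without Npc1-/- replicate 3, which held the highest value for both genes.

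Shank3 (ENSMUSG00000022623, chr15:89499623-89560261, plus strand) had the lowest adjusted p of the members, and it was far from the threshold. It was at 16.9, 14.5 and 18.7 scaled TPM in WT and 12.6, 13.5 and 17.1 in Npc1-/- mice. The log2 fold change was −0.21 (standard error 0.15, 95% confidence interval −0.55 to 0.13, n = 3, adjusted p = 0.453 by limma), and the highest mutant value lay above the 2 lower WT values. It kept this sign when any 1 library was left out, between −0.34 and −0.12. Exons of 6 members (Nrxn2, Nrxn3, Nlgn1, Nlgn3, Dlg2 and Shank3) overlap exons of another annotated gene, on the opposite strand for all but Nlgn3 and Dlg2. Whether the counting used strand is not given in the sources used here, so fragments in those exons may belong to either gene.

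By level per transcript length, the members spanned much of the range of tested genes. In mean TPM as deposited over the 6 mice, Nrxn2 was at 42.7, Dlg4 at 40.9, Nlgn2 at 31.6, Shank3 at 15.9, Nlgn3 at 9.33, Dlg2 at 9.17, Nlgn1 at 5.16, Cntnap2 at 1.24 and Nrxn3 at 0.918. Nrxn2 exceeded 86.5% of the tested genes and Nrxn3 exceeded 8.89% of them. Neighbours in this order held their places in 6 of 6 mice, except for Nrxn2 over Dlg4, Nlgn3 over Dlg2 and Cntnap2 over Nrxn3, each in 4 of 6 mice. The order within these 3 pairs therefore varied between mice, and levels of different genes were not tested against each other.

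Within each genotype the members fell into groups that were high and low in the same mice. In both genotypes replicate 3 was the lowest for all 3 neuroligins and the highest for 4 members, Nrxn3, Dlg2, Dlg4 and Shank3. The replicate numbers do not tie a WT mouse to a mutant mouse in the labels. Over all tested genes, WT replicate 3 and Npc1-/- replicate 3 deviated from their genotype means together (r = 0.326), so this pattern is not shown to be particular to the members. How many of all tested genes had replicate 3 at an extreme in both genotypes was not counted. The ratio of Dlg4 to Nlgn2 TPM, chosen after the values were seen, was 1.26, 1.02 and 1.65 in WT and 1.00, 1.104 and 2.37 in Npc1-/- mice, so the largest ratio of each genotype was also in replicate 3.

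Summed cell type markers, those of the O4-selected lineage included, had their highest and lowest values in some of the same mice. The summed scaled TPM of 6 OPC markers was 571, 640 and 472 in WT and 639, 538 and 345 in Npc1-/- mice, and the neuroligins had their highest and lowest mice where this sum did. The sum of 5 neurotransmitter identity markers (the vesicular glutamate transporters Slc17a6 and Slc17a7, Gad1, Gad2 and Slc32a1) was 18.1, 13.6 and 25.4 in WT and 15.7, 15.8 and 28.5 in Npc1-/- mice. Dlg4, Shank3, Dlg2 and Nrxn3 had their highest mice and their lowest WT mouse where that sum did. The lowest mutant mouse matched for Dlg4 and Shank3 only, and there the sum was nearly tied, at 15.749 and 15.756 in Npc1-/- replicates 1 and 2. Cntnap2 shared its highest and lowest mice with the sum of 12 pan-neuronal markers, which was 270, 218 and 252 in WT and 346, 281 and 318 in Npc1-/- mice. This pan-neuronal sum was higher in every mutant mouse than in any WT mouse, 11 of its 12 genes were higher and 2 (Nefl and Nefm, neurofilament genes) were called, while 0 of the 5 neurotransmitter genes and 0 of the 6 OPC genes were called. On the TPM as deposited the pan-neuronal sums overlapped, at 241 to 350 in WT and 231 to 381 in Npc1-/- mice. The immature and mature oligodendrocyte sums were also highest in replicate 3 of both genotypes, by 0.29 and 0.49 (immature) and by 0.18 and 0.44 (mature) above the genotype mean on the log2 scale, as were the 3 scaffolds and Nrxn3. The astrocyte, microglial and endothelial sums were likewise highest in Npc1-/- replicate 3 and lowest in Npc1-/- replicate 1, as were Dlg4 and Shank3. In WT the astrocyte and microglial sums were lowest in replicate 2, like the neurotransmitter sum, but highest in replicate 1. Matching mice were thus not particular to the neurotransmitter markers. The part of any of these cell types in the members' values was not tested.

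Other cell types were measured in the same way. The microglial sum was 135 to 213 scaled TPM in WT and 64.4 to 109 in Npc1-/- mice (1 of 6 genes called, Tmem119), and the endothelial sum was 713 to 844 and 376 to 630 (0 of 4 called). Sums overlapped between genotypes for 6 markers each of astrocytes (574 to 618 and 404 to 793), immature oligodendrocytes (1937 to 3108 and 2806 to 5638) and mature oligodendrocytes (173998 to 245364 and 219858 to 433792), with 0 genes called in each. The immature oligodendrocyte sum did not follow most of its genes, since 5 of 6 had a log2 fold change below 0 (median −0.12), and 5 of 6 astrocyte genes were below 0 as well (median −0.33). The pan-neuronal, microglial and endothelial sums did not overlap between genotypes, and among the members this held for Nrxn2 alone.

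**Figure D3:**
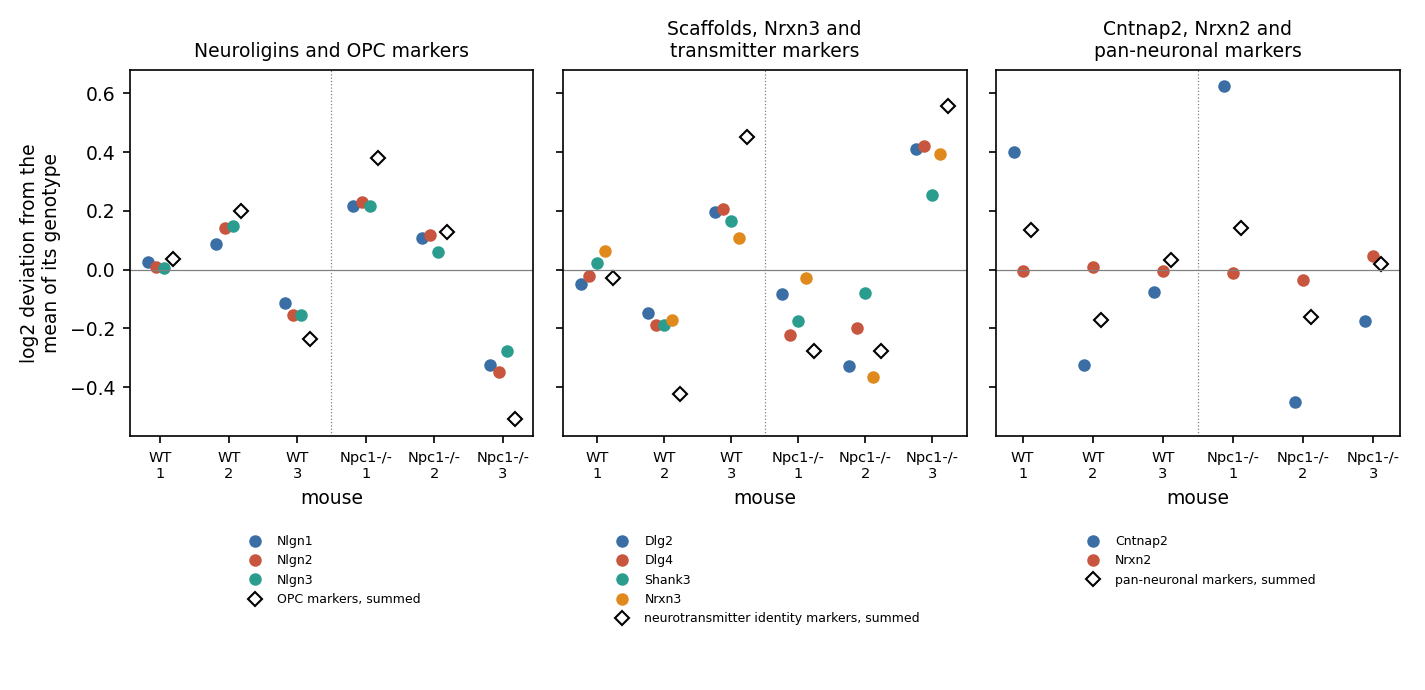
Log2 deviation of each gene (filled) and of each summed marker list (open diamonds) from the mean of its genotype, for the 6 mice. Replicate 3 lies lowest in both genotypes for the neuroligins and the OPC markers, and highest in both for Dlg2, Dlg4, Shank3, Nrxn3 and the neurotransmitter markers (the oligodendrocyte sums, not drawn, are highest there too), while Nrxn2 stays between −0.034 and 0.045.

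The members differed widely in the length of DNA they span. Cntnap2 spans 2244857 bp, Dlg2 1972576 bp, Nrxn3 1612060 bp and Nlgn1 906246 bp, which is longer than 99.5 to 99.9% of the tested genes, whereas the other members span 14663 to 125439 bp. In the single-nucleus RNA-seq of forebrain from mice of the same genotypes, these long genes, and no other members, are listed by the study as higher in Npc1-/- immature and mature oligodendrocyte nuclei, and Cntnap2 in OPC nuclei also. In the RNA of O4-purified cells the log2 fold changes of these genes were −0.26, 0.04, 0.06 and −0.19 in the same order, and none was called. The intervals given above reach up to 0.50 for Cntnap2, 0.50 for Dlg2, 0.61 for Nrxn3 and 0.19 for Nlgn1. Tissue, RNA pool, cell selection, unit of replication and threshold all differ between these assays, so the directions are set side by side with no test. Among the 66 tested genes that span at least 900 kb, 1 was called (lower) and the median log2 fold change was −0.04, while among 15164 shorter genes 123 were called and the median was 0.01. This limit lies just below the span of Nlgn1, so the 66 genes include the long members themselves. At an unadjusted p below 0.05 by limma there were 18 of the 66 (27.3%, 6 higher and 12 lower), against 22.2% of the shorter genes.

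Other genes of the same machinery were examined by list. Of 58 genes in 4 lists, 55 were tested and 0 were called by limma, where 0.813% of all tested genes were. At an unadjusted p below 0.05 there were 11 of 55 (5 higher and 6 lower), against 22.2% of all genes, and the median log2 fold change was −0.04. The smallest adjusted p was 0.0557, just over the threshold. The 2 genes named from each list were picked for the size of their change, so separate genotypes follow in part from that choice, and 27.5% of all tested genes had them.

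Of the 11 presynaptic organizers (other neurexin-family members, LAR-type phosphatases and the Cask complex), 10 were tested, 3 with a log2 fold change above 0 and 7 below (median −0.15). The largest changes were those of Lin7b, a PDZ partner of Cask, with a log2 fold change of 0.88 (95% confidence interval 0.30 to 1.45, adjusted p = 0.0992 by limma), and of Ptprd, a receptor phosphatase that organizes presynaptic terminals, with 0.41 (0.21 to 0.62, adjusted p = 0.0623). Lin7b was at 3.84, 3.52 and 4.49 scaled TPM in WT and 7.21, 5.42 and 11.3 in Npc1-/- mice, so the genotypes did not overlap. Ptprd was at 41.6, 43.2 and 46.3 in WT and 54.7, 58.2 and 62.2 in Npc1-/- mice, again without overlap, but neither passed the test over all genes. Cask itself, named here after its values were seen, had a log2 fold change of −0.39 (95% confidence interval −0.63 to −0.16, adjusted p = 0.0823).

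Of the 25 postsynaptic partners and neuroligin regulators, 23 were tested, 10 with a log2 fold change above 0 and 13 below. Cbln2, a secreted bridge between neurexins and glutamate delta receptors, had a log2 fold change of −0.77 (95% confidence interval −1.21 to −0.33, adjusted p = 0.0780 by limma), with 3.38, 3.54 and 2.74 scaled TPM in WT and 2.18, 1.68 and 1.27 in Npc1-/- mice. Adgrl2, a latrophilin, had −0.68 (−1.09 to −0.27, adjusted p = 0.0843), with 13.8, 12.05 and 8.42 in WT and 6.94, 6.95 and 6.54 in Npc1-/- mice. Every mutant mouse was below every WT mouse for both, without passing the threshold.

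Of the 15 postsynaptic scaffolds, all were tested, 7 with a log2 fold change above 0 and 8 below. Homer2, which links Shank proteins to metabotropic glutamate receptors, was at 6.01, 7.20 and 6.61 scaled TPM in WT and 11.05, 8.97 and 10.03 in Npc1-/- mice, a log2 fold change of 0.56 (95% confidence interval 0.29 to 0.84, adjusted p = 0.0602 by limma). Its paralog Homer1 was at 13.4, 15.7 and 14.8 in WT and 13.1, 10.8 and 11.7 in Npc1-/- mice, a log2 fold change of −0.29 (−0.54 to −0.04, adjusted p = 0.173).

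Of the 7 partners of Cntnap2 at the juxtaparanode, 5 had a log2 fold change above 0 and the median was 0.21. Epb41l3, a band 4.1 protein that anchors Caspr proteins to the cytoskeleton, was at 102, 131 and 139 scaled TPM in WT and 154, 179 and 204 in Npc1-/- mice, a log2 fold change of 0.53 (95% confidence interval 0.17 to 0.89, adjusted p = 0.107 by limma). Lgi1, a secreted ligand of Adam22, was at 3.94, 3.199 and 3.05 in WT and 2.696, 2.09 and 2.11 in Npc1-/- mice, a log2 fold change of −0.48 (−0.83 to −0.12, adjusted p = 0.126).

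**Figure D4:**
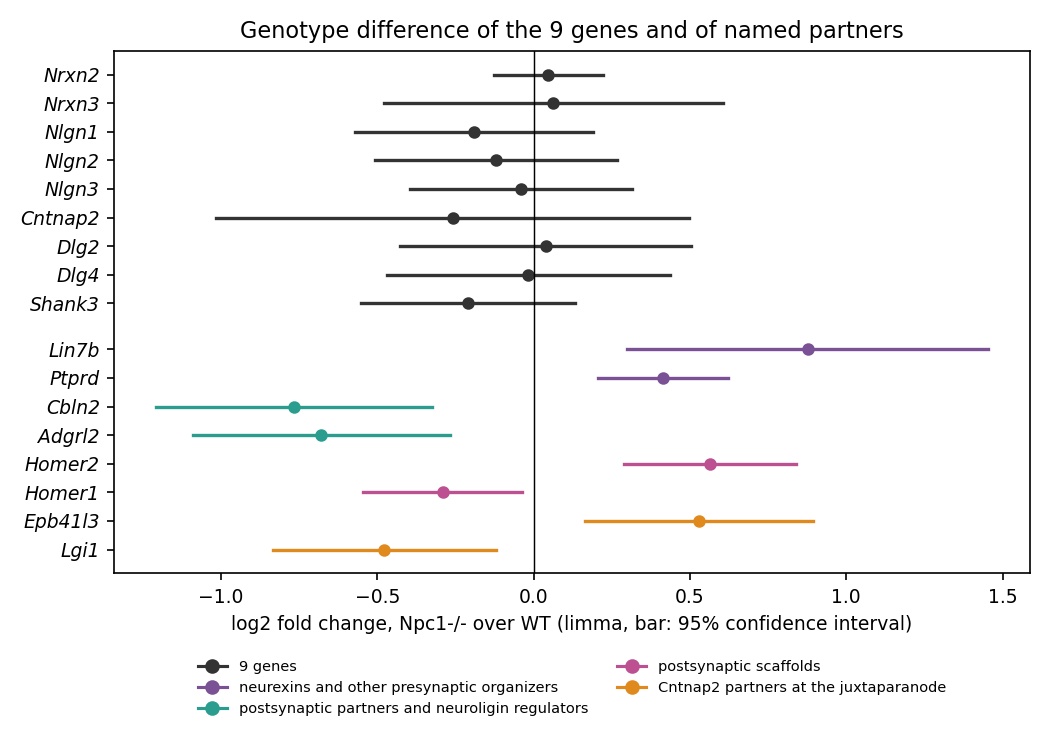
Log2 fold change of Npc1-/- over WT with its 95% confidence interval from limma (n = 3 per genotype) for the 9 genes (dark) and for the 2 genes with the largest change in each of 4 lists (colours). All 9 intervals cross 0, with the narrowest for Nrxn2 (−0.13 to 0.22) and the widest for Cntnap2 (−1.02 to 0.50), while those of the 8 others lie to 1 side of 0 before adjustment for multiple testing.

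The tested genes whose pattern over the 6 mice was most like a member's were found by the root mean square distance between centred log2 values. For Cntnap2, the member with the largest absolute log2 fold change, these were Prx at 0.067, Plppr4 at 0.078 and Actg2 at 0.096. For Nrxn2, the member with the highest mean TPM, they included Mepce at 0.016 and Ndfip2 at 0.020.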

How the data were processed

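RNA-seq of O4-purified cells from 3 WT and 3 Npc1-/- mice was analysed; genotype and replicate number came from the sample labels. Per the study's methods, the authors used bbduk for trimming, STAR for alignment to GRCm38 and featureCounts for counting; the submitters' processing notes also list cutadapt 2.3, STAR 2.7.8a and RSEM 1.3.3. Which of these made the deposited values is not given in the sources used here. The authors deposited TPM (length-scaled, with a fixed sum per library) and FPKM (scaled for length and library size) for each gene, and counts were not used here. The TPM total is fixed, so a gene that takes a large share lowers all others; TPM were therefore divided by median-of-ratios size factors (0.727 to 1.30, over 18690 genes).

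Genotypes were compared with limma 3.58.1 (R 4.3.3, trend) on log2(scaled TPM + 0.5) for the 15245 genes with a mean of at least 0.5 TPM, two-sided, with Benjamini-Hochberg adjustment over all of them. Calls needed an adjusted p below 0.05 together with a log2 change of 0.1 or more in size. The step was tested on simulated data. The test of the shares and of the ratio was the exact permutation test over 20 arrangements. Depth was estimated from the deposited FPKM, whose low values in single-transcript genes lie near whole multiples of 1 fragment (83.5 to 86.5% within 0.15). Gene positions are from GENCODE M21, which held 55227 of the 55492 identifiers. Promoter windows are from RefSeq.

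The members, the wider lists and the marker lists were chosen with earlier results of these data known. All members were named, with any called gene of a wider list or otherwise its 2 largest absolute log2 fold changes, called marker genes, and the 3 most alike genes of 2 members, of which 1 is not reported here. The alternatives were 18 settings of scaling, unit, pseudocount, filter, variance model, transcript-length correction, replicate block and left-out libraries. Python 3.11.15 was used for tables and figures.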

Additional observations from a re-analysis of the deposited data

How the results depend on the processing

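Under each of the 18 alternatives 0 members were called, with a smallest adjusted p of 0.119 by limma, so no choice of setting changed a call. Directions were less firm: of 160 member log2 fold changes recomputed, 18 changed sign, all in members whose main value lay between −0.12 and 0.06. On the TPM as deposited the median of all genes was −0.33, the median of the members was −0.39, and Nrxn2 was at −0.32, Nrxn3 at −0.18 and Dlg2 at −0.32; 924 genes were called (54 higher, 870 lower) with 1 of the wider lists, Lrrtm2, named after its values were seen. The summed markers there differed by −0.02 (pan-neuronal) on the log2 scale, against 0.35 with size factors. With quantile normalization Nrxn2 was at −0.017 and 225 genes were called (92 higher, 133 lower). With a transcript-length curve removed, with or without the replicate block, Nlgn3 was at 0.090 and Dlg4 at 0.082, and 1 gene of the wider lists was called without the block, Homer2. The number of genes called was 21 without a filter, 447 at a mean of at least 5 TPM (3 of the wider lists: Homer2, Ptprd and Lrrtm2), and 42 without the trend.

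With the replicate block, 2011 genes were called (13.2%), 0 members and 10 of the wider lists, among them Lin7b, Ptprd, Cbln2, Adgrl2, Homer2, Epb41l3 and Lgi1, 7 of the 8 genes named for the size of their change; with the length curve as well, 1672 genes, again with 10 of the wider lists. Same-numbered mice deviated together with r = 0.414, 0.060 and 0.326 for the numbers 1, 2 and 3, and each mouse correlated best with its own number, but 1 of these was not over 0.1 and the labels give no link, so the block is not the main result. It left the neuroligin differences at −0.741 points for Nlgn1 and 1.052 for Nlgn3 (exact p = 0.25, the smallest that 3 pairs allow).

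Leaving out 1 library at a time gave 5 to 477 called genes, the fewest without Npc1-/- replicate 2 and the most without Npc1-/- replicate 3. The log2 fold change ranged from −0.57 to −0.04 for Cntnap2, −0.30 to −0.03 for Nlgn1, −0.14 to 0.25 for Nrxn3, −0.23 to 0.050 for Nlgn2, −0.15 to 0.094 for Nlgn3, −0.17 to 0.20 for Dlg2 and −0.23 to 0.10 for Dlg4. The log2 ratio of Nrxn2 to Nrxn3 differed by −0.30 to 0.25, turning above 0 without WT replicate 2 and without Npc1-/- replicate 3. The cause of these changes was not tested. With 3 mice per genotype, the spread between mice set the width of each interval.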
